A study of Homo sapiens with 8 samples.

Results

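The autophagy machinery was described here by the RNA levels of 38 genes in HMEC-1, a line of microvascular endothelial cells from human skin made immortal by a viral large T antigen. The 38 genes were taken by symbol from a list of the genes that start the autophagosome, build it, load it with cargo and control its genes. All 38 were found in the deposited table of 16153 genes, and all 38 were among the 16103 genes that reached 1 CPM in 2 or more libraries and were tested. The values are scaled CPM as the authors deposited them. They are read counts scaled by 1 factor per library, and the columns sum to 966156 to 1061176.

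The study asked how weightlessness and the other conditions of space flight alter endothelial transcripts. The space_microg group (n = 3 libraries) was kept without gravity on the International Space Station, the space_1g group (n = 2) flew in the same incubator but turned in its centrifuge at 1 g, and the ground group (n = 3) stayed at normal gravity in a matching facility in the home laboratory. Cells of all 3 groups were grown on gelatin-coated plastic in the same serum-containing medium with hydrocortisone and EGF, and were fixed in an RNA-preserving reagent inside automated units. The labels' protocols name no starvation step and no inducer or inhibitor of autophagy. Replicates of a group are not said to be separate cultures, so the p-values measure the spread between these libraries, which may be technical.

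Macroautophagy wraps a portion of cytoplasm in a double membrane, the autophagosome, and delivers it to the lysosome for breakdown. A kinase complex around ULK1 starts the process, a lipid kinase complex around BECN1 and PIK3C3 marks the membrane, and ATG9A and the ATG2 proteins bring in vesicles and lipids. A pair of ubiquitin-like conjugation systems then attaches proteins of the ATG8 family to the growing membrane, where receptors such as SQSTM1 tie cargo to it. In endothelium, autophagy is known for its part in the response to blood flow, nutrient stress and oxidative stress. Much of its control acts on proteins through phosphorylation and lipid attachment, which RNA levels do not show.

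TFEB and TFE3, the transcription factors of autophagy and lysosome genes, bind the E-box CACGTG and its longer palindrome TCACGTGA, so the promoters of the members were searched for both. RefSeq promoters on GRCh38.p14, from 250 bases before to 50 after the start, were matched for 34 of the 38 genes. A single window was searched per gene, and it need not lie at the outermost annotated start. That of ATG5, at chr6:106316217-106316516, lies inside the gene. Both motifs read the same on either strand, and each TCACGTGA also counts as a CACGTG. Only 2 of the 34 promoters (5.88%) held CACGTG, against 7.43% of 27305 RefSeq promoters and 10.1% of 10187 promoters of tested genes. Only the ATG3 promoter held TCACGTGA (2.94%, against 1.04% and 1.92%). A match is a description of letters, and the absence of one in this window says nothing about binding elsewhere. These are the 2 stretches that held a motif, each from 120 bases before the start through 30 bases from it, 5′ to 3′ on the gene's own strand, with the motifs in capitals. That of ATG3 lies on the minus strand at chr3:112561933-112562082 and that of ATG14 on the minus strand at chr14:55411801-55411950.
ATG3: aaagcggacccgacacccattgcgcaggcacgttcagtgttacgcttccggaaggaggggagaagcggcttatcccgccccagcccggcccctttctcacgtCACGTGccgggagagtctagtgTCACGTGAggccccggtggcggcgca
ATG14: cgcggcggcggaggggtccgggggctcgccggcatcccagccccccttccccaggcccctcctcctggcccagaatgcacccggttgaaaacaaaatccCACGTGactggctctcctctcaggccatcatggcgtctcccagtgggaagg
With the start site as position 0, the first ATG3 motif began at -18 and its palindrome core at 5, and the ATG14 motif began at -21. ATG3, the enzyme that hands ATG8 proteins to their lipid, measured 72.6, 69.3 and 81.4 CPM in space_microg, 61.8 and 71.0 in space_1g and 69.8, 55.9 and 84.9 on the ground, so its ranges overlapped in every comparison.

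The libraries held 24248964 to 35388757 reads over the genes of the table, and 1 read was worth 0.0285 to 0.0398 CPM. Of the endothelial markers, 15 of 15 were in the table. Their summed levels were 1612.9 to 2514.1 CPM in space_microg, 1861.1 to 1985.9 in space_1g and 2348.1 to 2854.9 on the ground. Of other cell types, 6 of 10 fibroblast and mural markers and 3 of 8 epithelial markers were in the table. Their sums over all libraries were 143.5 to 340.0 and 255.8 to 372.3 CPM. Of 6 leukocyte markers 1 was in the table, CD14 at 1.04 to 2.88 CPM. Presence in the table alone does not establish cell identity. Among these marker sums, only the endothelial sum was lower in both space_1g libraries than in all 3 ground libraries. By gene, 12 of the 15 endothelial markers were lower and 3 higher in space_microg than on the ground. In space_1g 14 were lower and 1 higher, and none was called in either comparison. The part of these differences in the results below was not tested. The first principal component of all tested genes held 61.86% of the variance and did not follow the groups. Its scores were 60.7 for space_1g replicate 1 and 64.7 for ground replicate 3, far from those of space_microg replicate 1 (1.51) and the other 5 libraries (-31.1 to -20.7). In these 2 libraries p53 targets lay above their 8-library mean by a median log2 of 1.32 and 0.99. Interferon-response genes lay above theirs by 2.03 and 2.09, and genes of the integrated stress response by 0.95 and 1.25. Genes of mitosis lay below theirs (-0.95 and -0.63).

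**Figure D1:**
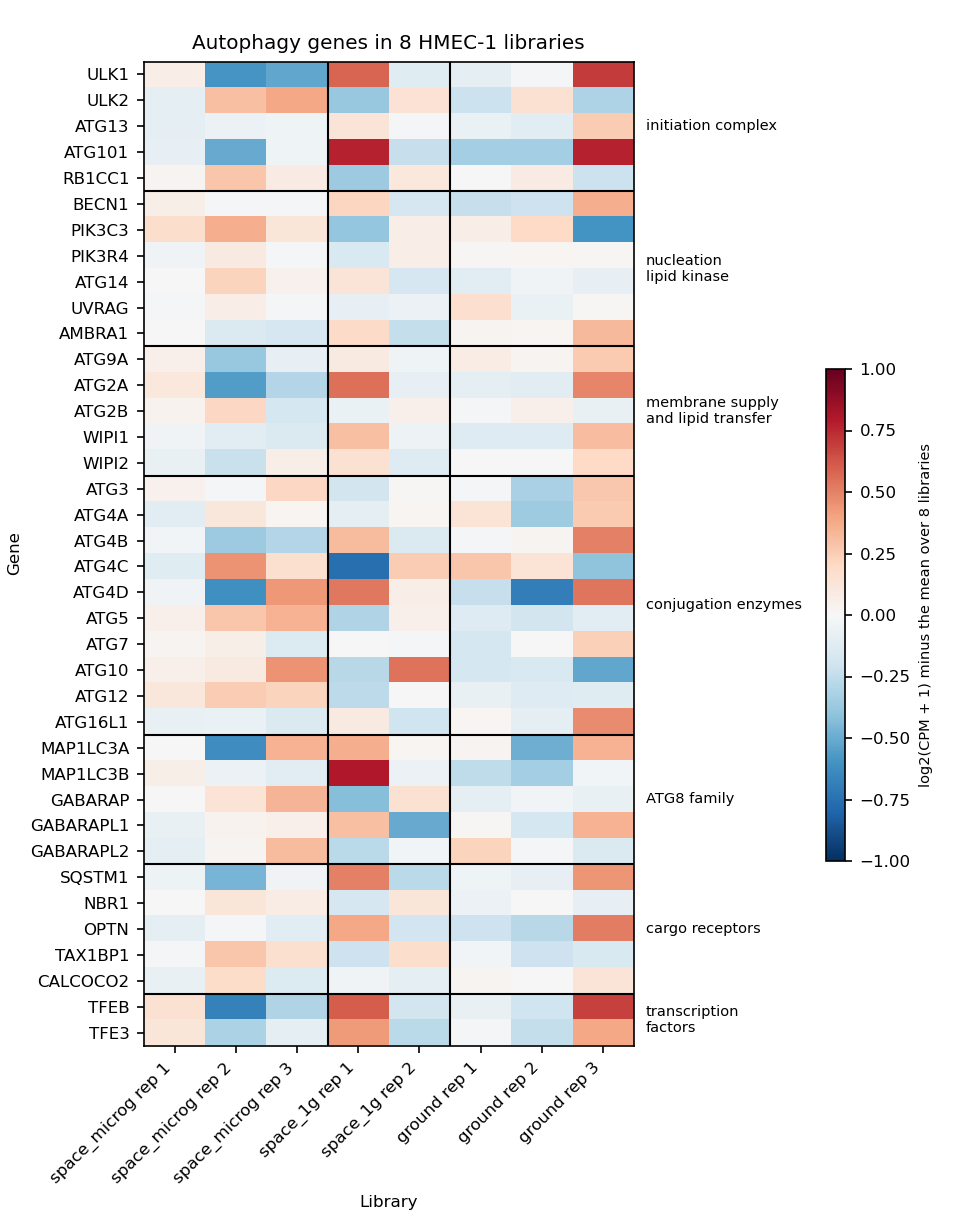
The heat map shows each of the 38 genes (rows, grouped by step of the pathway) in each of the 8 libraries (columns), as log2(CPM + 1) minus that gene's mean over the 8 libraries. Red is above the mean and blue below it, with colours ending at 1 and -1. The columns of space_1g replicate 1 and ground replicate 3 hold most of the strong colours, and space_microg replicate 2 often has the opposite colour.

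None of the 38 genes changed between the groups by the test. With limma over all genes and Benjamini-Hochberg adjustment, 0 of 38 members were called in each of the 3 comparisons, as were 0 of 16103 genes (0% of all genes each time), and the smallest adjusted p of a member was 0.866 for space_microg against ground, 1 for space_1g against ground and 0.912 for space_microg against space_1g. At an unadjusted p under 0.05 stood 1, 1 and 0 members, beside 696 genes (4.32%), 249 genes (1.55%) and 212 genes (1.32%) of all tested. EdgeR called 0 genes in each comparison (741, 227 and 221 unadjusted), and DESeq2 called 3, 0 and 0 genes (871, 327 and 339 unadjusted), none of them members. Changes below are log2 differences of log2(CPM + 1) ± SE from limma over all 8 libraries. The scale understates the change of low genes.

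The members were well expressed. Their mean level had a median of 68.8 CPM, against 23.8 over all tested genes. From the lowest to the highest library a member spanned a median log2 of 0.65, against 0.88 over all genes, whose levels are lower. The range was narrowest for PIK3R4, the scaffold of the lipid kinase (0.24), and widest for TFEB (1.36). Per kilobase of exon the cargo receptors led, with SQSTM1 at 69.2 CPM per kb, OPTN at 39.8 and NBR1 at 24.0, followed by RB1CC1 at 21.7 and ATG9A at 21.4. The lowest levels per kilobase were those of TFEB at 2.74 and of the conjugating enzyme ATG10 at 2.42.

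In the initiation complex, ULK1, the kinase that starts autophagy, was lowest in weightlessness on average. ULK1 (chromosome 12, 131894651 to 131923167 in GRCh38) measured 58.5, 36.8 and 38.6 CPM in space_microg, 84.2 and 51.4 in space_1g and 52.6, 55.2 and 91.3 on the ground. Replicate 1 of space_microg lay above 2 ground libraries and 1 space_1g library, so the groups overlapped. ULK1 differed by -0.55 ± 0.29 between space_microg and ground (limma adjusted p = 0.866) and by -0.58 ± 0.32 between space_microg and space_1g (adjusted p = 0.912). With both libraries that stand apart left out these differences were -0.30 and -0.23, and without space_1g replicate 2 alone the second was -0.93. Its paralogue ULK2 showed the other order, with 80.0, 105.6 and 111.9 CPM in space_microg, 65.3 and 94.4 in space_1g and 73.6, 95.2 and 68.8 on the ground, a difference of 0.32 from the ground (95% interval -0.16 to 0.80).

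The partners of the kinase differed more between libraries within space_1g and within the ground group than between group means. ATG101, a small subunit that stabilises ATG13, measured 38.1, 28.2 and 39.3 CPM in space_microg, 69.5 and 34.3 in space_1g and 31.7, 31.8 and 69.4 on the ground. Its highest values were thus in space_1g replicate 1 and ground replicate 3, and the other 6 libraries stayed between 28.2 and 39.3. ATG13, the regulatory subunit, measured 80.4, 82.3 and 83.2 CPM in space_microg against 93.5 and 84.2 in space_1g, so these groups did not overlap, and 81.7, 79.0 and 102.3 on the ground. The scaffold RB1CC1, also called FIP200, measured 127.4 to 199.0 CPM with its lowest values in space_1g replicate 1 and ground replicate 3.

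The nucleation genes make the lipid PI3P on the forming membrane, and none of them passed the test. BECN1, the scaffold of the complex, averaged 82.8 ± 2.64 CPM in space_microg (SD, n = 3), 84.3 ± 16.0 in space_1g (n = 2) and 82.3 ± 20.6 on the ground (n = 3). PIK3R4 averaged 89.9 ± 4.34, 86.9 ± 9.43 and 89.9 ± 0.288 CPM in the same order. The catalytic subunit PIK3C3 measured 97.2, 111.0 and 93.5 CPM in space_microg, 65.8 and 90.0 in space_1g and 90.0, 98.9 and 56.4 on the ground. Space_microg lay above both space_1g libraries for PIK3C3 but overlapped the ground. Its log2 difference was 0.38 from space_1g (95% interval -0.21 to 0.96) and 0.33 from the ground (-0.19 to 0.85), and the low values were again those of space_1g replicate 1 and ground replicate 3.

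Of the subunits that direct this kinase, ATG14 targets it to autophagosome formation and UVRAG to endosomes. ATG14 measured 39.2, 45.9 and 40.4 CPM in space_microg and 36.3, 38.3 and 36.9 on the ground, with 42.9 and 34.8 in space_1g. All 3 space_microg libraries lay above all 3 ground libraries, by 0.16 with a 95% interval of -0.18 to 0.50. UVRAG measured 77.3, 81.7 and 77.3 CPM in space_microg, above 73.6 and 74.9 in space_1g, and 87.8, 74.5 and 78.6 on the ground. AMBRA1, which links the complex to ULK1 and to ubiquitin ligases, measured 66.4, 59.8 and 58.8 CPM in space_microg, below 67.5, 67.0 and 83.0 on the ground, a difference of -0.23 (interval -0.60 to 0.15), with 75.6 and 56.0 in space_1g.

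Among the genes of membrane supply and lipid transfer, 4 of 5 were lower in space_microg than on the ground and 1 was higher, none past the test. ATG2A, a lipid-transfer protein that feeds the growing membrane, measured 76.7, 47.9 and 57.7 CPM in space_microg, 104.2 and 67.1 in space_1g and 66.2, 65.7 and 99.9 on the ground. Its difference between space_microg and space_1g was -0.48 ± 0.29 (limma adjusted p = 0.912), and the groups overlapped because space_microg replicate 1 was above space_1g replicate 2. This ATG2A difference was -0.16 with the GC and length trend of each library removed, -0.17 when space_1g replicate 1 was dropped and -0.79 when replicate 2 of that group was. The paralogue ATG2B ranged from 121.7 to 159.0 CPM with group means of 140.4 ± 18.6, 136.7 ± 7.69 and 136.0 ± 5.95 in space_microg, space_1g and ground. ATG9A, the membrane protein of the seed vesicles, averaged 92.0 ± 13.8, 102.4 ± 6.73 and 109.5 ± 9.67 CPM in that order. WIPI1 and WIPI2, which read the PI3P mark, stayed within 25.3 to 34.9 and 81.5 to 109.6 CPM.

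The conjugation enzymes held the member with the smallest p in space_microg against ground. ATG5 (chromosome 6, 106045423 to 106325791) and ATG12 (chromosome 5, 115828200 to 115841858) are joined to each other, and with ATG16L1 the pair forms the ligase that places ATG8 proteins on the membrane. ATG5 measured 42.4, 49.8 and 52.3 CPM in space_microg, 32.9 and 42.3 in space_1g and 37.2, 35.9 and 37.6 on the ground. Every space_microg library lay above every library of the other groups, with the gap to space_1g replicate 2 at 42.4 against 42.3 CPM. The difference of ATG5 was 0.37 ± 0.16 from the ground (95% interval 0.01 to 0.73, limma adjusted p = 0.866) and 0.35 ± 0.18 from space_1g (adjusted p = 0.912).

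ATG12 showed the same order. It measured 59.4, 65.4 and 64.1 CPM in space_microg, 45.5 and 54.4 in space_1g and 51.9, 49.9 and 50.1 on the ground, so all space_microg libraries were again above all others. Its difference was 0.31 ± 0.14 from the ground (limma adjusted p = 0.866) and 0.33 ± 0.15 from space_1g (adjusted p = 0.912). Both comparisons use the same space_microg libraries. For neither gene did space_1g differ from the ground by more than its error (0.01 ± 0.18 for ATG5 and -0.03 ± 0.15 for ATG12). ATG5 and ATG12 have AT-rich transcripts, with a GC content of 38.77% and 37.53% in the longest one. After removal of the dependence on transcript GC content and length in every library, their differences from the ground were 0.16 and 0.09 and those from space_1g 0.12 and 0.09, and the space_microg and ground libraries overlapped. With both libraries that stand apart left out, the differences from the ground were 0.38 and 0.30. Without space_1g replicate 1, those from space_1g were 0.18 for ATG5 and 0.21 for ATG12, and without space_1g replicate 2 alone 0.53 and 0.46.

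ATG10, the enzyme that carries ATG12 to ATG5, was the lowest member per kilobase. ATG10 measured 13.3, 13.7 and 17.9 CPM in space_microg, 10.4 and 19.1 in space_1g and 11.2, 11.4 and 8.64 on the ground. Space_microg did not overlap the ground, while the 2 space_1g libraries spanned nearly the whole range. The difference from the ground was 0.48 ± 0.26 for space_microg (limma adjusted p = 0.866) and 0.41 ± 0.29 for space_1g (adjusted p = 1). The second of these was 0.83 without space_1g replicate 1 and 0.0033 without space_1g replicate 2. Exons of ATG10 share 374 bases, 6.86% of their length, with the ribosomal protein gene RPS23 on the opposite strand, which measured 314 to 526 CPM in space_microg, 227 to 355 in space_1g and 262 to 299 on the ground. ATG10 was not the only such member. Exons of ATG12 share 378 bases (4.25%) with AP3S1 on the opposite strand. AP3S1 measured 60.8 to 70.8 CPM in space_microg and 49.2 to 62.4 on the ground. The share was larger for WIPI1 (24.3%, with ARSG) and ATG7 (18.1%, with VGLL4). The strand setting of the counting, not given in the sources used here, bears on whether reads of such gene pairs were told apart. Its part in the values of these members, ATG10 and ATG12 included, was not tested.

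The remaining conjugation genes did not separate the groups in a common direction. ATG7, the activating enzyme of both systems, averaged 59.5 ± 4.36 CPM in space_microg, 59.9 ± 0.655 in space_1g and 61.3 ± 8.96 on the ground. ATG16L1 averaged 58.4 ± 1.67, 60.3 ± 8.79 and 69.5 ± 15.2 CPM in that order, with ground replicate 3 highest at 86.8, and differed by -0.19 ± 0.20 between space_1g and ground (limma adjusted p = 1). That difference shrank to -0.02 when ground replicate 3 was dropped and to -0.04 when space_1g replicate 2 was, and it widened to -0.30 on dropping ground replicate 2 and to -0.33 on dropping space_1g replicate 1.

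The ATG4 proteases trim ATG8 proteins before lipid attachment and release them afterwards, and their 4 genes behaved differently from one another. ATG4B, the main protease of the family, measured 88.2, 69.6 and 73.0 CPM in space_microg, all below 89.0, 91.4 and 127.4 on the ground, with 112.0 and 81.0 in space_1g. The difference from the ground was -0.40 ± 0.20 (limma adjusted p = 0.866), and the nearest libraries were at 88.2 in space_microg and 89.0 on the ground. It was -0.22 with the GC and length trend removed and -0.23 with both libraries that stand apart left out. ATG4C measured 17.1, 25.9 and 21.0 CPM in space_microg, 10.7 and 22.4 in space_1g and 22.9, 20.7 and 13.9 on the ground, lowest in the 2 libraries that stand apart. ATG4D had the opposite profile, with 38.8 and 39.0 CPM in those libraries and 16.1 to 36.4 in the others, and differed by 0.43 ± 0.40 between space_1g and ground (adjusted p = 1). The ATG4D difference shrank to 0.15 when ground replicate 2 was dropped and to 0.20 when space_1g replicate 1 was. It widened to 0.66 on dropping space_1g replicate 2 and to 0.76 on dropping ground replicate 3. ATG4A ranged from 16.2 to 25.4 CPM.

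**Figure D2:**
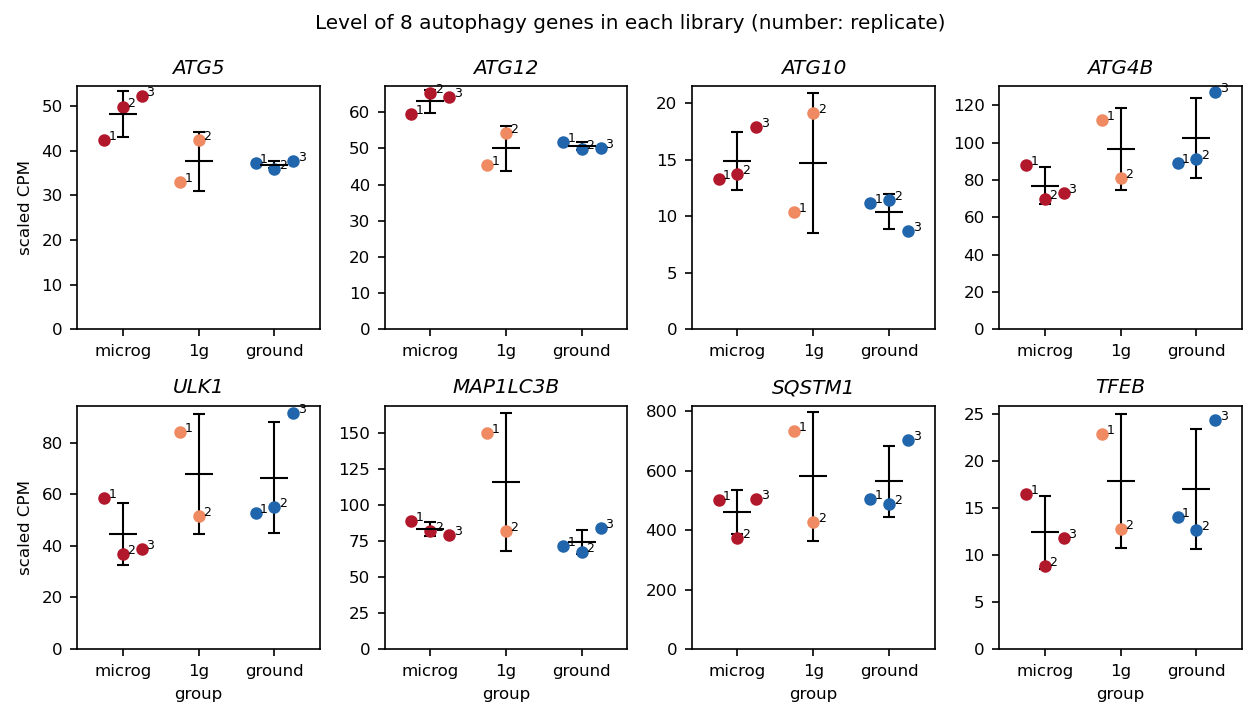
Each panel shows the scaled CPM of 1 gene in each library (points, numbered by replicate) for space_microg, space_1g and ground, with the group mean (bar) and SD (whiskers). ATG5 and ATG12 are higher in every space_microg library than in any other, while ULK1, MAP1LC3B, SQSTM1 and TFEB are highest in space_1g replicate 1 or ground replicate 3.

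The ATG8 family coats the autophagosome and includes MAP1LC3B, the LC3 protein used as the standard marker of autophagosomes. MAP1LC3B (chromosome 16, 87383995 to 87404779) measured 89.0, 81.9 and 78.9 CPM in space_microg, 149.7 and 82.0 in space_1g and 71.5, 67.5 and 83.8 on the ground. Space_1g replicate 1 stood far above all the rest, which lay between 67.5 and 89.0. The fitted difference between space_1g and ground was 0.58 ± 0.24 (95% interval 0.02 to 1.13, limma adjusted p = 1). It was 0.15 without space_1g replicate 1 and 1.01 without space_1g replicate 2, so 1 library decides its size. Between space_microg and space_1g MAP1LC3B differed by -0.41 ± 0.24 (adjusted p = 0.912), and by 0.0195 without space_1g replicate 1.

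In space_1g replicate 1 the make-up of the family was different too. Per kilobase of exon, MAP1LC3B took 39.24% of the summed level of the 5 genes there, against 21.4% to 27.97% in the other 7 libraries, and GABARAP took 10.61% against 15.59% to 19.86%. Ground replicate 3, which shared the high p53 and interferon scores, had a MAP1LC3B share of 24.93%. GABARAP itself measured 23.4, 25.9 and 30.1 CPM in space_microg, above 22.0, 23.1 and 22.3 on the ground, with 17.3 and 26.3 in space_1g. GABARAPL1 ranged from 25.9 to 47.6 CPM, with the lowest value in space_1g replicate 2 and the highest in ground replicate 3. GABARAPL2 measured 48.2, 52.5 and 64.3 CPM in space_microg, 42.5 and 50.5 in space_1g and 60.3, 50.7 and 46.5 on the ground, a difference of -0.17 ± 0.19 between space_1g and ground (limma adjusted p = 1). The GABARAPL2 difference was -0.05 when space_1g replicate 1 was dropped, -0.07 when ground replicate 1 was and -0.29 when space_1g replicate 2 was. MAP1LC3A ranged from 9.07 to 19.0 CPM, and space_microg replicate 2 and ground replicate 2 held its lowest values.

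Cargo receptors bind ubiquitin-tagged cargo and ATG8 proteins at once. SQSTM1, also called p62, measured 500.6, 374.8 and 505.8 CPM in space_microg, 733.5 and 428.1 in space_1g and 503.4, 488.2 and 702.9 on the ground. OPTN measured 188.4, 199.2 and 185.8 CPM in space_microg, 262.7 and 175.5 in space_1g and 173.7, 165.9 and 286.1 on the ground. Both receptors were highest in space_1g replicate 1 and ground replicate 3, and SQSTM1 differed from the ground by -0.29 in space_microg (95% interval -0.86 to 0.28) and by 0.01 in space_1g (-0.63 to 0.65).

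TAX1BP1 and NBR1, receptors for protein aggregates, had another profile. TAX1BP1 measured 155.0, 189.5 and 175.2 CPM in space_microg, above 153.2, 135.7 and 140.8 on the ground, a difference of 0.27 (95% interval -0.08 to 0.62), with 135.3 and 176.8 in space_1g. NBR1 measured 200.9, 218.4 and 211.1 CPM in space_microg and 192.8, 200.5 and 189.7 on the ground, again without overlap though with 200.9 against 200.5 CPM in the nearest libraries, and 178.5 and 218.9 in space_1g. CALCOCO2, also called NDP52, a receptor for invading bacteria and damaged mitochondria, measured 125.3 and 120.9 CPM in space_1g, below 130.7, 128.9 and 140.7 on the ground, and 116.6 to 145.9 in space_microg. Its difference between space_1g and ground was -0.11 (interval -0.46 to 0.23).

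The transcription factors separated 2 libraries rather than the groups. TFEB measured 16.5, 8.87 and 11.8 CPM in space_microg, 22.9 and 12.8 in space_1g and 14.0, 12.7 and 24.3 on the ground. TFE3 measured 62.3, 45.8 and 53.8 CPM, then 77.4 and 47.4, then 56.4, 48.3 and 75.0. For both genes the top values were those of space_1g replicate 1 and ground replicate 3, and for both the difference between space_microg and ground was negative with an interval that includes 0 (-0.41, from -1.17 to 0.35, for TFEB and -0.14, from -0.68 to 0.41, for TFE3).

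**Figure D3:**
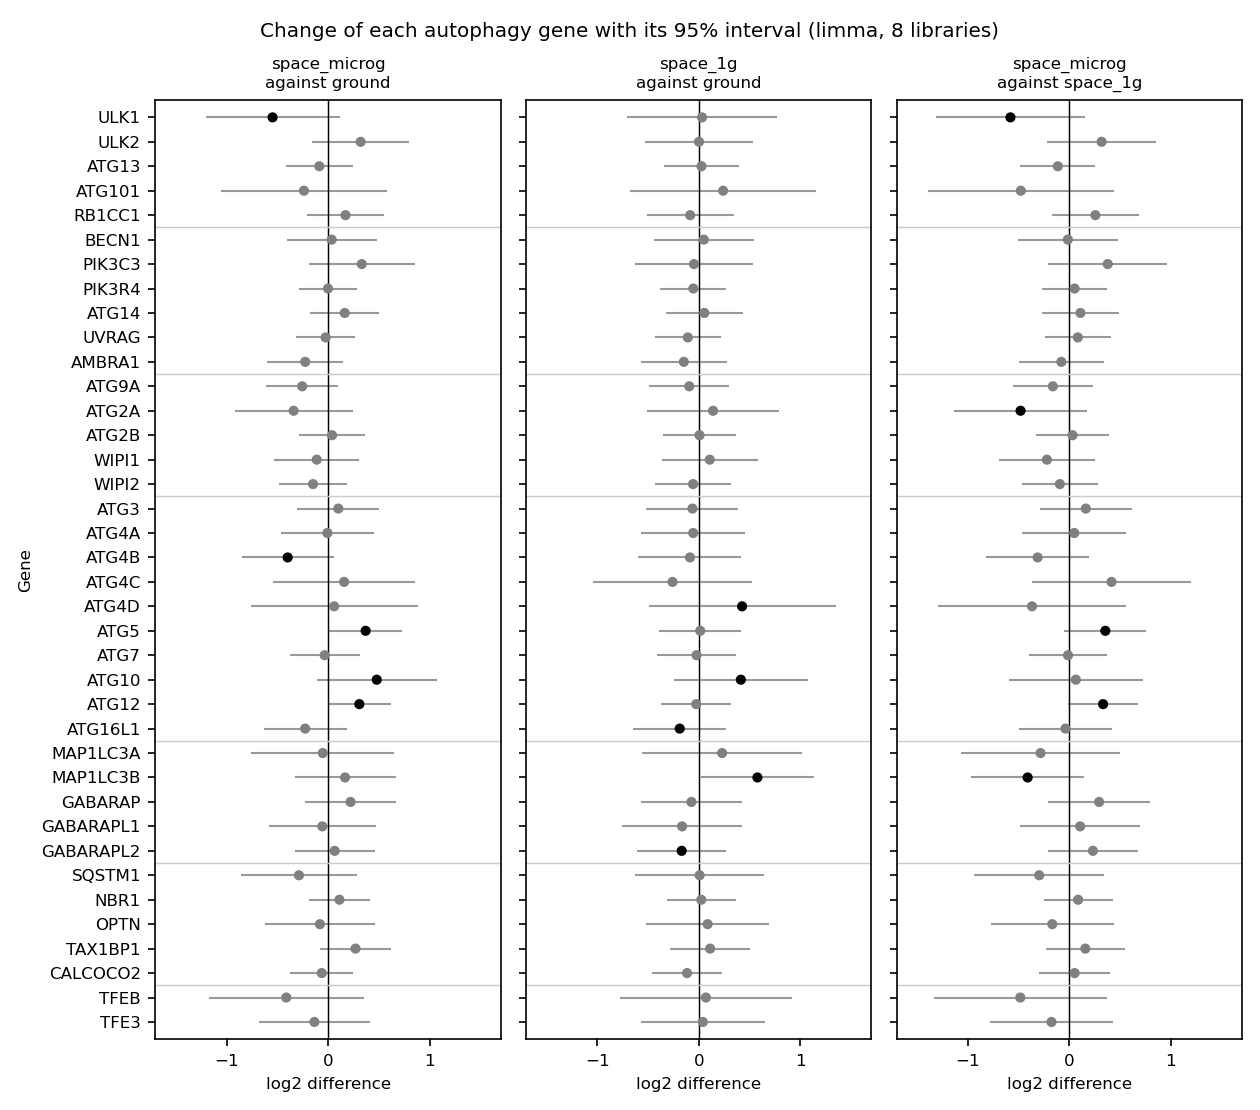
Each panel gives the log2 difference (points) with its 95% interval (lines) for the 38 genes in 1 comparison, with grey lines between steps of the pathway; black points are the members with the smallest p in that comparison. Intervals of all but ATG5 in space_microg against ground and MAP1LC3B in space_1g against ground include 0, and none passed the adjusted threshold.

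Seen as a group, the 38 genes were split nearly evenly over all 8 libraries, and the split depended on which libraries were used. In space_microg against ground 17 were higher and 21 lower, with a median difference of -0.0159, against -0.0225 over all genes. In space_1g against ground 20 were higher and 18 lower, with a median of 0.005 (all genes 0.0061), and in space_microg against space_1g 19 were higher and 19 lower, with a median of 0.0091 (all genes -0.0252). With both libraries that stand apart left out, 24 were higher and 14 lower in space_microg against ground, 23 and 15 in space_1g against ground and 21 and 17 in space_microg against space_1g. With edgeR the first split was 20 and 18. In space_1g against ground the split was 15 and 23 when ground replicate 1 was dropped and 13 and 25 when ground replicate 2 was. In space_microg against space_1g the split was 17 and 21 without space_1g replicate 2, which leaves only space_1g replicate 1, a library that stands apart. It was 21 and 17 without space_1g replicate 1.

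Groups without overlap were counted as a further description. All space_microg libraries lay above all ground libraries for 7 members (18.4%), which are ATG14, ATG5, ATG10, ATG12, GABARAP, NBR1 and TAX1BP1, against 7.88% of all genes. They lay below for 2 members (5.26%), AMBRA1 and ATG4B, against 6.53% of all genes. With the GC and length trend removed the counts were again 7 and 2. The background was then 6.55% and 6.84% of the 13842 genes with known GC content and length. ATG5, ATG12 and AMBRA1 were no longer among the members counted, while PIK3C3, MAP1LC3B and SQSTM1 were. With both libraries that stand apart left out the counts were 10 (26.3%) and 2 (5.26%), where 16.7% and 16.6% of all genes had no overlap. In space_1g against ground 0 members lay above (background 4.94%) and 1, CALCOCO2, below (5.73%). In space_microg against space_1g 4 lay above, PIK3C3, UVRAG, ATG5 and ATG12 (7.24%), and 1, ATG13, below (6.91%).

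The clearest order in the members was between libraries within groups. Space_1g replicate 1 and ground replicate 3 were the 2 highest of the 8 libraries for 18 of the 38 genes (47.4%), against 23.6% of all genes. They were the 2 lowest for 7 (18.4%, against 21.5% of all genes), namely ULK2, RB1CC1, PIK3C3, ATG4C, ATG10, GABARAPL2 and NBR1, and neither for 13. The 18 had a median GC content of 57.86% and the 7 one of 42.08%, and all tested genes of the same kinds had 54.86% and 41.26%. With the GC and length trend removed the counts were 10 highest and 4 lowest of the 38 genes. The share of highest was then near the 25% of the 13842 genes with known GC content and length, and that of lowest was under their 18.8%. The 10 were ULK1, ATG101, BECN1, ATG2A, WIPI1, ATG16L1, GABARAPL1, SQSTM1, OPTN and TFEB. The 4 were ULK2, PIK3C3, ATG9A and TAX1BP1, of which ATG9A had been among the 18 before the removal.

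GC content ordered the members within single libraries. All 11 members with at least 55% GC lay above their 8-library mean in space_1g replicate 1 and in ground replicate 3, by a median log2 of 0.50 and 0.49, and all 11 lay below it in space_microg replicate 2, by a median of -0.50. Of the 15 members under 45% GC, 13 lay below their mean in space_1g replicate 1 and 13 above it in space_microg replicate 2. In ground replicate 3 the order was looser, with 10 of these 15 below their mean and 5 above it. Over the 13842 genes with known GC content and length, both together accounted for 53.3% of the deviation of space_microg replicate 2 from the mean library. The share was 21.1% in ground replicate 3, 14.2% in space_1g replicate 1 and 2.16% to 12% in the other 5. MAP1LC3B and OPTN were among the members that departed from this order. MAP1LC3B, at 50.44% GC, had the largest deviation of the 38 in space_1g replicate 1, and OPTN, at 44.76% GC, was high in both libraries.

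**Figure D4:**
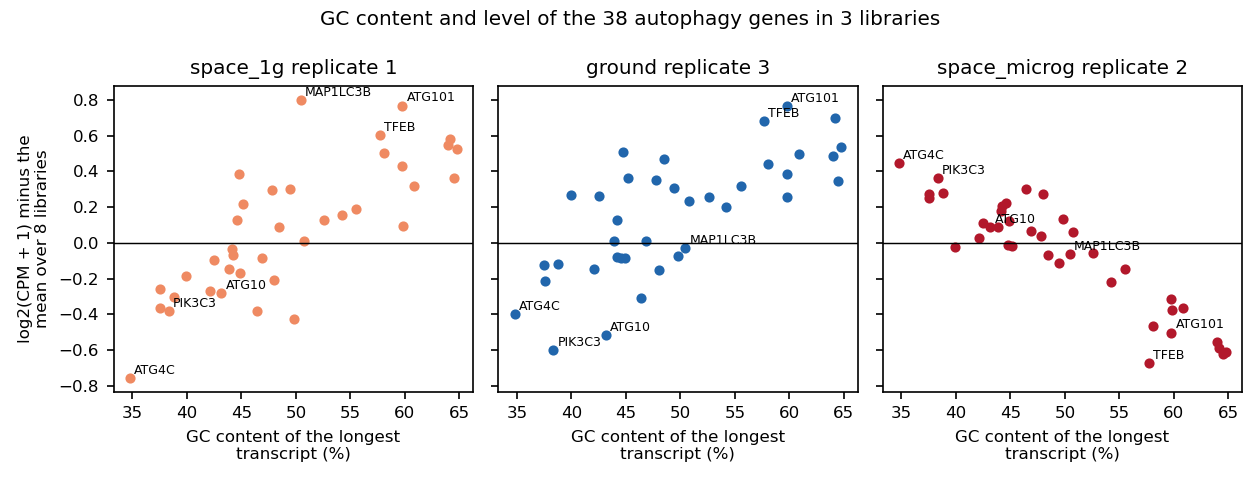
Each panel plots, for 1 library, the 38 genes by the GC content of the longest transcript (x axis, %) and by log2(CPM + 1) minus the mean over the 8 libraries (y axis). Values climb with GC content in space_1g replicate 1 and ground replicate 3 and decline with it in space_microg replicate 2; MAP1LC3B lies well above the other genes of like GC content in space_1g replicate 1.

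Around the core machinery, further genes of the pathway were counted in 5 lists, and none of them was called in any comparison. Of 32 upstream kinase and nutrient-sensing genes, 13 were higher and 19 lower in space_microg than on the ground, and 1 had an unadjusted p under 0.05. That gene, PRKAG2, a regulatory subunit of the energy sensor AMPK, measured 27.3, 28.2 and 30.3 CPM in space_microg, 20.5 and 21.9 in space_1g and 20.8, 22.5 and 15.2 on the ground, a difference from the ground of 0.55 ± 0.18 (limma adjusted p = 0.866). Every space_microg library of PRKAG2 lay above all others. The 16 nucleation and membrane partners were split 8 and 8. TRAPPC13 was higher by 0.42 ± 0.17 (limma adjusted p = 0.866). ATG16L2, a paralogue of ATG16L1, was lower by a difference of -0.65 ± 0.27 (limma adjusted p = 0.866). Its groups overlapped, with 75.2 CPM in space_microg replicate 1 against 74.1 in ground replicate 1. The top ATG16L2 values were 128.8 in ground replicate 3 and 126.3 in space_1g replicate 1. Of 16 genes for fusion with the lysosome, 7 were higher and 9 lower, and of 18 other selective receptors 12 were higher and 6 lower, with ATL3, a receptor for endoplasmic reticulum, higher by 0.46 ± 0.18 (adjusted p = 0.866). With both libraries that stand apart left out, the kinase split turned to 19 higher and 13 lower and the fusion split to 9 and 7, while the partners were 11 and 5 and the receptors 13 and 5.

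Of 23 genes for transcription control and for the lysosome that TFEB is known to control, 9 were higher and 14 lower in space_microg than on the ground (median -0.14), and 3 were higher and 20 lower in space_1g (median -0.15), none past the test. With both libraries that stand apart left out the splits were 9 and 14 in space_microg and 5 and 18 in space_1g, and with the GC and length trend removed 7 and 16, and 2 and 21. The medians of all genes were -0.0225 and 0.0061, and both comparisons use the same ground libraries. All libraries lay below all ground libraries for 4 of the 23 in space_microg and for 7 in space_1g, where the backgrounds given above are 6.53% and 5.73%. TPP1, a lysosomal peptidase, measured 158.9, 135.7 and 141.3 CPM in space_microg against 225.0, 255.2 and 169.7 on the ground, a difference of -0.56 ± 0.17 (limma adjusted p = 0.866), with 194.6 and 177.2 in space_1g. TPP1 did not pass the threshold.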

How the data were processed

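RNA-seq of 8 libraries of HMEC-1 was used. Per the labels' protocols, ribosomal RNA was depleted from total RNA before stranded library preparation. The authors deposited 1 table of normalised signal, named CPM per the labels, which proved to be reads scaled by library: the columns sum to 966156 to 1061176, and low values step by whole reads. The submitters' processing notes name STAR 2.5.3, featureCounts, edgeR, CASAVA 1.8.2 and FastQC, and the builds GRCh38 and hg38; strand setting and annotation were not given in the sources used here. The table had 0 further columns of per-sample values.

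From this signal log2(CPM + 1) was computed for the 16103 genes with at least 1 CPM in at least 2 libraries (50 left out) and fitted with limma 3.58.1 (mean trend) in R 4.3.3, all 8 libraries in 1 model, two-sided, Benjamini-Hochberg adjusted over all genes at 0.05. Limma, chosen when plain CPM was assumed, was retained for this scaled signal. EdgeR 4.0.16 and DESeq2 1.42.0 on the recovered reads were among 22 alternatives; others changed pseudocount, filter, scaling, model, GC and length trend, or libraries. The fit was tested on simulated data with planted log2 changes of 1 and 2 in either direction and no library standing apart. That test does not show whether changes as small as those of the members would be found. Gene positions, exon lengths and GC content are from GENCODE v29 on GRCh38 (13867 symbols found once, 38 of 38 members). No pair of replicates agreed within sampling noise (chi-square per degree of freedom 19.5 to 205). Members and gene lists were chosen with earlier results of these data known. A member's fitted change is given with its p where the unadjusted p was under 0.05 or among the 5 smallest of the comparison; other members are given by level, with intervals where groups did not overlap or as context chosen after their values were seen. Genes of other lists were named only at an unadjusted p under 0.05, and not every such gene is reported here.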

Additional observations from a re-analysis of the deposited data

How the results depend on the processing

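No member was called under any of the 22 alternatives in any comparison. The number of genes called in space_microg against ground was 0, but 3 with DESeq2 and 615 with array weights, whose iteration did not reach its tolerance; under these weights 0 members were called and the smallest adjusted p of a member was 0.0865. MAP1LC3B in space_microg against space_1g changed direction, to 0.0195, without both libraries that stand apart, and ranged from -0.841 to 0.0195 with 1 library left out. The median of the members in that comparison ranged from -0.1117 to 0.0199 with 1 library left out, the lower value without space_1g replicate 2, against a spread of 0.12 between replicates. The adjusted p of ATG5 in space_microg against ground ranged from 0.0865 to 0.999 and that of ATG12 from 0.093 to 0.999. Counts of members without overlap in the latter comparison under other settings were chosen after seeing the data. Replicate numbers are not said to mark a shared batch, and they were not taken to pair the libraries. Same-numbered deviations correlated at -0.397, 0.556 and 0.05 for space_microg and ground. They correlated at -0.678 and 0.601 for space_1g and ground and at 0.679 and 0.205 for space_microg and space_1g. The values with space_1g cannot decide on pairing, because its 2 libraries deviate from their mean as mirror images. With the number as a replicate block ATG5 differed by 0.37 in space_microg against ground (limma adjusted p = 0.679), and 0 members were called. Under the block 1, 2 and 3 members and 1013, 759 and 850 genes had an unadjusted p under 0.05. Without it these were 1, 1 and 0 members and 696, 249 and 212 genes. Leaving out a space_1g library leaves 1, assumed to vary like the other groups.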
